A study of Mus musculus with 24 samples.

Results

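Messenger RNA was counted for 10 genes, C3, Apba1, Mical2, Nrgn, Spp1, Cadm1, Rai14, Siah1b, Dpysl2 and C1qbp, out of 56748 genes in the deposited table. They were matched by symbol and had been selected on their counts in regulatory T cells (Treg), which were higher in the libraries with 5 agonists of the kappa opioid receptor (KOR) than in the library with the vehicle DMSO. The same contrast therefore carries no test here, and its values are given as a description. The series holds 24 bulk libraries of poly(A) RNA from wild-type (WT) mouse T cells polarised in culture, 6 each from Treg, Th1, Th17 and activated CD8 cells. For every cell type there were 5 agonist libraries, with WMS-200, WMS-64, WMS-75, and also WMS-76 and WMS-83, at 0.1 µM for up to 5 days, and 1 library that received DMSO. The tests treat the 5 agonists as replicates and take the single DMSO library to vary as the others do, so errors and p-values cover the spread between these libraries only. Levels are given as CPM, read counts divided by the TMM-adjusted library size, and all 10 genes were among the 15885 that passed the filter on low counts.

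KOR is a receptor coupled to inhibitory G proteins and is best known from neurons. Treg are CD4 T cells that restrain immune responses and depend on the transcription factor Foxp3. The 10 genes belong to no single pathway. C3 and Spp1 encode secreted proteins and Cadm1 an adhesion molecule, Mical2, Rai14 and Dpysl2 encode proteins of the cytoskeleton, Apba1 and Nrgn are best known from synapses, Siah1b encodes a ubiquitin ligase and C1qbp a mainly mitochondrial protein.

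Library totals lay between 15188284 and 21946887 counts. Foxp3 reached 208 to 357 CPM in the Treg agonist libraries, against 162 CPM with DMSO, and stayed at or below 38.0 CPM in every library of the other cell types. Ribosomal protein genes took 2.07% to 2.87% of the counts in the Treg agonist libraries, against 1.66% with DMSO, and 9.65% to 12.8% in the other cell types. The column names also hold a WT number, whose meaning is not stated in the labels. It is 3 for WMS-200 and DMSO in Treg and 2 for the other 4 Treg agonist libraries, it is 4 in all Th1 and 2 in all CD8 libraries, and in Th17 it is 1 for 4 agonists, 3 for WMS-83 and 2 for DMSO. Only WMS-200 thus shares its WT number with DMSO in Treg, and the WT number cannot be told apart from the step between WMS-200 and the other 4 agonists.

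Gene coordinates are printed as the deposited table gives them, with no build named there, and they do not match the GRCm38.p6 coordinates printed with the promoters. On chromosome 17 C3 spans 57510970 to 57535136 on the minus strand, and Spp1 spans 104582984 to 104588916 on the plus strand of chromosome 5. Cadm1 lies at 47441471 to 47769413 on the plus strand of chromosome 9, and Nrgn at 37455788 to 37464200 on the minus strand of the same chromosome. Mical2 covers 111825063 to 112012313 on the plus strand of chromosome 7, Rai14 covers 10569055 to 10714710 on the minus strand of chromosome 15, and Dpysl2 covers 67040313 to 67106137 on the minus strand of chromosome 14. Apba1 lies at 23736251 to 23926960 on the plus strand of chromosome 19, Siah1b at 162853701 to 162859489 on the minus strand of chromosome X, and C1qbp at 70868662 to 70873852 on the minus strand of chromosome 11. All 10 are annotated as protein coding. Counting is per gene, so exons cannot be told from one another, and the strand setting of the counting is not given in the sources used here. Genes overlapping C3, Apba1, Nrgn, Spp1, Cadm1 and Rai14 held at most 25 counts each over all libraries.

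Promoters, from 250 bases before to 50 after a start site, were available from RefSeq (GRCm38.p6) for 8 of the 10 genes. The sequences printed are those of 5 genes that were lower with WMS-200 than with the other agonists in Treg (C3, Spp1, Mical2, Rai14 and Apba1) and of 2 genes that did not pass that test (Siah1b and C1qbp), so that both kinds can be compared. Capitals mark matches, on either strand, to the motifs TGACG (core of the cAMP response element), TGANTCA (AP-1), CAGACA (Smad) and TGTGGT (RUNX). For Rai14, Spp1 and Siah1b the start site that holds the match is shown.
C3 (chr17:57228087-57228386, minus strand): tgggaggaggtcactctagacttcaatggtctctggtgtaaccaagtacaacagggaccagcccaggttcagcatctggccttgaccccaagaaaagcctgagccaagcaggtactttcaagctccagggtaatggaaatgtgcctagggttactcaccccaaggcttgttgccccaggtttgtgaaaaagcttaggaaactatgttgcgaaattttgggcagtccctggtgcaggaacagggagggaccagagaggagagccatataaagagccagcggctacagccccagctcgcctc
Spp1 (chr5:104434861-104435160, plus strand): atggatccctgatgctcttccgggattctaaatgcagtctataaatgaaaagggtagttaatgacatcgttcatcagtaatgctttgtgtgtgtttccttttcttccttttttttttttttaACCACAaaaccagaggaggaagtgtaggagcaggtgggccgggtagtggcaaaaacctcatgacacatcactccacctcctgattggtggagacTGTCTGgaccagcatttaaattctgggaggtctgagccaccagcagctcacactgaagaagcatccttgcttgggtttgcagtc
Mical2 (chr7:112225586-112225885, plus strand): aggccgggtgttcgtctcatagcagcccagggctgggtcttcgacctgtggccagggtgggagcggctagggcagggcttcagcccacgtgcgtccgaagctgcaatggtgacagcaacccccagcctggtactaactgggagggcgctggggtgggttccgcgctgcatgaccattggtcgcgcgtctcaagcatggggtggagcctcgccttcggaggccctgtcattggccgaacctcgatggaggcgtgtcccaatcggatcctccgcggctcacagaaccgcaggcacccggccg
Rai14 (chr15:10714049-10714348, minus strand): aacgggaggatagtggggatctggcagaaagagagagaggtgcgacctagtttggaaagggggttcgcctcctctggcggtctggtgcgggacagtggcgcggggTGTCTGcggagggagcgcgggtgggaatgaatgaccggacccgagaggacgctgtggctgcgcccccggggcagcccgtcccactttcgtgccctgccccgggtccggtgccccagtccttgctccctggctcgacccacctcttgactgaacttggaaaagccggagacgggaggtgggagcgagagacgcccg
Apba1 (chr19:23758626-23758925, plus strand): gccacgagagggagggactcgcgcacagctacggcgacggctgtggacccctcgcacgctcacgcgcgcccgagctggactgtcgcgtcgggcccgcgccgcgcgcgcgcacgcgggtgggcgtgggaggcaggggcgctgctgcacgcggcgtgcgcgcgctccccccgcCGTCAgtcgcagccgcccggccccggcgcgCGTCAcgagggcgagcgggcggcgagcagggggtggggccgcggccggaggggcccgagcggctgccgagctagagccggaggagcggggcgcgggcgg
Siah1b (chrX:164076444-164076743, minus strand): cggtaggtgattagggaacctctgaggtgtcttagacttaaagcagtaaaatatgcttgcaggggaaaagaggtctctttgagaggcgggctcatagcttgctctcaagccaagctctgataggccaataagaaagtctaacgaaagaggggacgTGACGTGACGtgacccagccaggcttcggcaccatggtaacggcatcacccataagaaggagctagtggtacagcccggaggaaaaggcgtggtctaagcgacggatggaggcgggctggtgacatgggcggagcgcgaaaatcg
C1qbp (chr11:70982977-70983276, minus strand): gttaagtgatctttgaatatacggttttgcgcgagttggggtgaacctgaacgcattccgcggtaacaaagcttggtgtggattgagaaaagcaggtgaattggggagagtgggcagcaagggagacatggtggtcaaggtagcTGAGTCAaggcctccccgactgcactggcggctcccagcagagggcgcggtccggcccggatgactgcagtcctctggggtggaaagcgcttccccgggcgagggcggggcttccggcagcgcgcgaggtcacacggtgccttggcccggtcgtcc
The 8 genes have 11 promoters, and the percentages that follow are per promoter. TGACG was found in 2 of the 11, of Apba1 and Siah1b, with 2 matches each, and in 20.8% of the 32851 promoters of the table. CAGACA was found in Rai14 and Spp1 and in 21.0% of all promoters, TGTGGT in Spp1 and in 16.8%, and TGANTCA in C1qbp and in 7.81%. The CArG box of serum response factor was found in 0 of the 8 genes and in 1.63% of all promoters. No motif was present in more than 2 of these genes.

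In Treg all 10 genes were higher in each of the 5 agonist libraries than in the DMSO library, as the selection required, which was also the case for 28.7% of all genes tested. Log2 fold changes of agonists over DMSO ran from 1.00 for C1qbp to 3.50 for C3, at ranks 834 and 103 of 15885 from the highest, with a median of 2.53 over the 10 genes and 0.07 over all genes tested. Over all genes, 8.82% were called at an adjusted p below 0.05, 7.64% higher and 1.18% lower, and with DESeq2 size factors in place of TMM 760 genes were called higher and 237 lower in place of 1213 and 188. These figures describe the contrast that chose the genes, and nothing is read from them. The agonist library nearest to DMSO in relative terms was WMS-200 for Rai14, at 1.45 CPM against 1.11 CPM with DMSO.

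**Figure D1:**
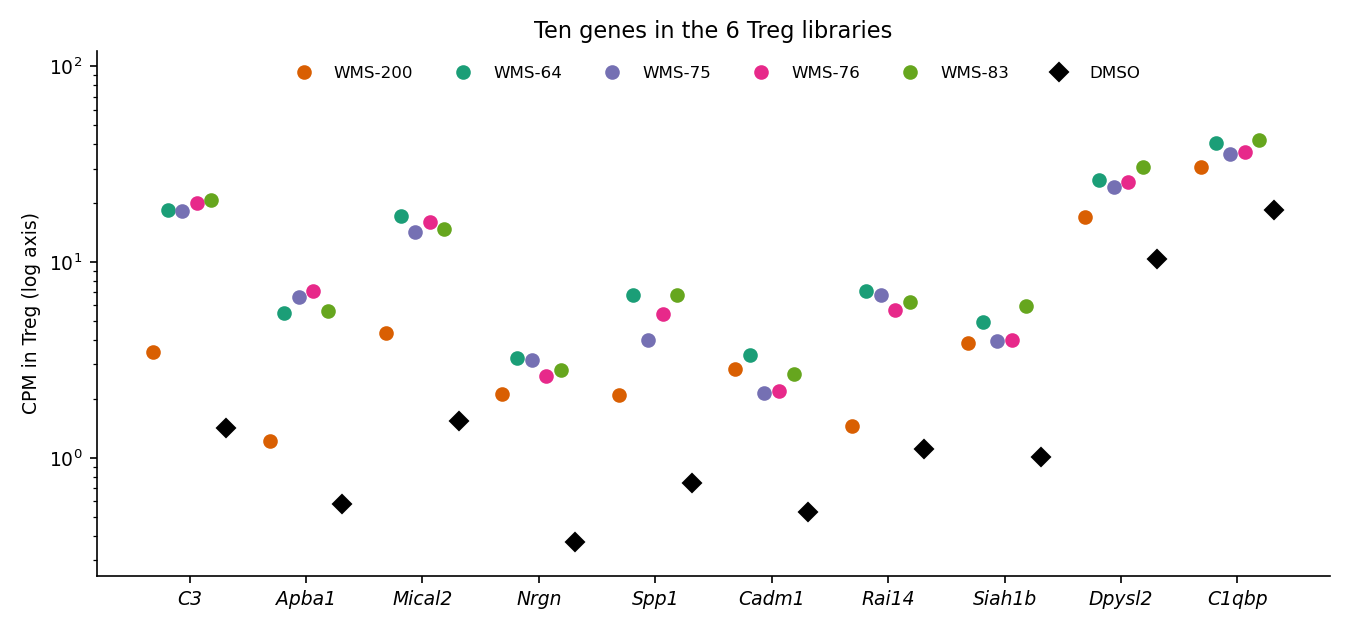
CPM (log axis) of the 10 genes in the 6 Treg libraries, 1 point per library, with the 5 agonists as circles and DMSO as a diamond. For C3, Apba1, Mical2 and Rai14 the WMS-200 point lies far below the other 4 agonist points, and for Cadm1 it lies among them.

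The WMS-200 library was set against the other 4 agonist libraries in Treg, which is a comparison among agonists. It is separate from the agonist against DMSO contrast, although the same libraries entered the mean that chose the genes and WMS-200 is a single library. Genes that differ between WT numbers 3 and 2 could be chosen and also be low with WMS-200, so the counts over the 10 genes are a description and nothing particular to them is read from the shares over all genes. The adjusted p-values given by gene carry the same limit, and they do not tell the compound from the WT number. C3, Mical2, Rai14, Apba1, Spp1 and Dpysl2 were lower with WMS-200. That is 6 of 10 genes called lower and 0 called higher, where 7.76% of all genes tested were called, 5.23% lower and 2.54% higher. WMS-200 lay below each of the other 4 agonist libraries in 9 of the 10 genes, against 31.3% of all genes tested, and the exception was Cadm1. The median log2 fold change of the 10 genes was -1.06 and that of all genes tested -0.05.

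**Figure D2:**
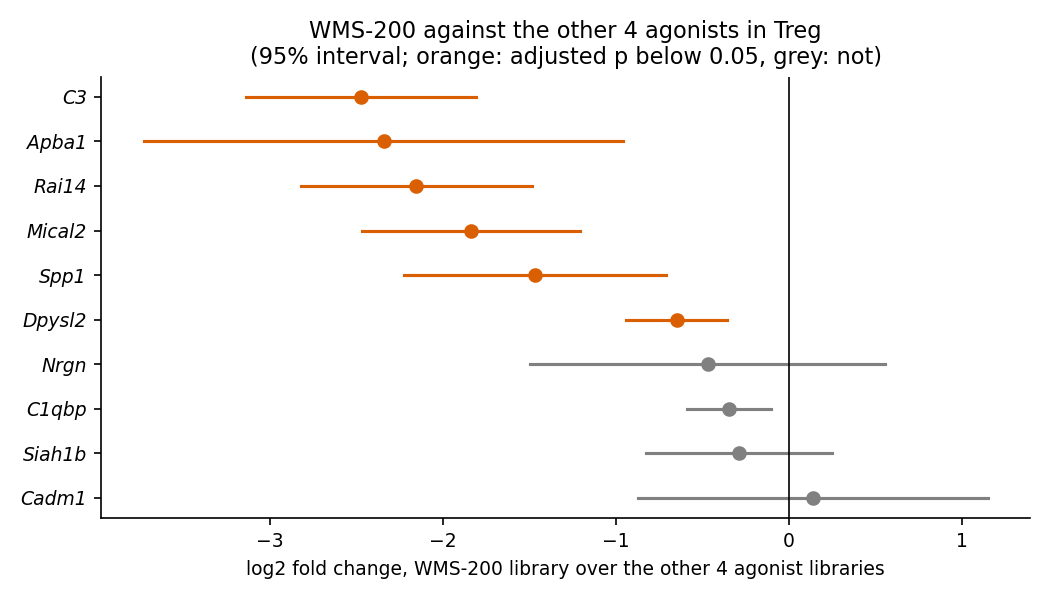
Log2 fold change of the Treg WMS-200 library over the other 4 Treg agonist libraries, with 95% intervals, for each gene. Orange marks an adjusted p below 0.05, reached by 6 genes with values from -2.47 to -0.65, and grey marks the other 4, with values from -0.47 to 0.14.

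The order of the genes can also be read from where the WMS-200 value stood between DMSO, set at 0%, and the mean of the other 4 agonists, set at 100%. Rai14 stood at 6.33%, Apba1 at 11.4%, C3 at 11.5%, Mical2 at 20.1%, Spp1 at 26.8% and Dpysl2 at 40.9%. C1qbp stood at 59.5%, Nrgn at 68.3%, Siah1b at 76.9% and Cadm1 at 113%. Thus Cadm1 with WMS-200 lay within the range of the other 4 agonists, and Rai14 with WMS-200 was nearly as low as with DMSO.

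Some other measures moved with the same split, and others did not. Foxp3 was 208 CPM with WMS-200 and 290 to 357 CPM with the other 4 agonists, against 162 CPM with DMSO, and Ikzf2, which encodes the Treg factor Helios, was 1103 CPM with WMS-200 and 540 to 601 CPM with the other 4, against 1137 CPM with DMSO. The summed CPM of 10 B cell markers was 156 with WMS-200 and 104 to 135 with the other 4 agonists, against 152 with DMSO, and that of 7 CD8 markers was 51.7 with WMS-200 and 27.2 to 36.8 with the other 4, against 42.3 with DMSO. Th17 markers, 7 genes, summed to 305 with WMS-200 and 355 to 416 with the other 4, against 267 with DMSO, and 9 erythroid and platelet markers summed to 23.0 with WMS-200 and 14.8 to 18.5 with the other 4, against 26.9 with DMSO. The sum over all 10 Treg markers was 3734 with WMS-200 and 3498 to 3747 with the other 4, against 3299 with DMSO. This sum joins genes that moved in opposite directions, since Ikzf2 was higher with WMS-200 than with the other 4 and Foxp3 and Il2ra were lower. Il2ra had 879 CPM with WMS-200 and 1111 to 1376 CPM with the other 4, against 564 CPM with DMSO. In the sum alone WMS-200 lay within the range of the other 4. It also did for Th1 markers (749, others 726 to 854, DMSO 764) and pan T cell markers (1663, others 1641 to 1893, DMSO 1591). The same held for NK and gamma delta markers (6.84, others 5.57 to 7.62, DMSO 8.83). It held too for stromal and endothelial markers (48.9, others 45.5 to 57.6, DMSO 52.8) and neural markers (199, others 190 to 244, DMSO 160). Myeloid and dendritic markers, 19 genes, summed to 13.0 with WMS-200 and 9.65 to 13.6 with the other 4, against 10.2 with DMSO. Lyz2 was at or below 0.736 CPM and Adgre1 at or below 0.317 CPM in Treg. Csf1r had 0.860 CPM with WMS-200 and 0.0457 to 0.213 CPM with the other 4, against 0.159 CPM with DMSO. Itgam had 1.49 CPM with WMS-200 and 0.213 to 0.987 CPM with the other 4, against 1.11 CPM with DMSO. The fibroblast gene Dcn was at 0 in all 6 Treg libraries. Col1a1, also a stromal marker, had 1.13 CPM with WMS-200 and 1.46 to 2.44 CPM with the other 4, against 1.74 CPM with DMSO. Whether the makeup of the cultures had a part in the values of the 10 genes was not tested, and in bulk RNA a change in the share of cells and a change in RNA per cell cannot be told apart. Over all genes tested, 0.132% were called in WMS-200 against DMSO and 16.7% in the other 4 agonists against DMSO, the first being 1 library against 1 and the second 4 against 1, so these shares differ in power and are not compared.

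Among the secreted proteins, C3 is the central component of complement, cleaved when any complement pathway is activated. In Treg it had 3.49 CPM with WMS-200, 18.5 with WMS-64, 18.2 with WMS-75, 20.1 with WMS-76 and 20.7 with WMS-83, against 1.43 CPM with DMSO. The 4 other agonists lay within a narrow band near 20 CPM, WMS-200 lay well below them at 2.44 times DMSO, and DMSO was lowest. Agonists over DMSO gave a log2 fold change of 3.50 ± 0.77 (SE), WMS-200 alone 1.28 ± 0.45 and the other 4 alone 3.76 ± 0.38, as a description. WMS-200 against the other 4 agonists gave -2.47 ± 0.33 (adjusted p = 1.29e-05), the largest difference of the 10 genes. In Th1 C3 had 8.94, 8.01, 9.15, 7.75 and 14.7 CPM in the agonist libraries, against 10.9 CPM with DMSO. There WMS-83 stood above the other libraries, and the other 4 agonists lay below DMSO. In Th17 it had 14.7, 12.6, 13.8, 11.3 and 17.8 CPM in the agonist libraries, against 22.4 CPM with DMSO, with all 5 agonists below DMSO. CD8 cells had the lowest levels, 2.15 to 3.92 CPM in the CD8 agonist libraries, against 3.43 CPM with DMSO. None of these cell types passed the test for agonists against DMSO, with log2 fold changes of -0.16 ± 0.54 in Th1, -0.68 ± 0.51 in Th17 and -0.17 ± 0.65 in CD8.

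Spp1 encodes osteopontin, a secreted phosphoprotein that binds integrins and CD44 and that activated T cells make as a cytokine. Treg libraries held 2.08 CPM with WMS-200, 6.81 with WMS-64, 4.00 with WMS-75, 5.44 with WMS-76 and 6.76 with WMS-83, against 0.740 CPM with DMSO. Every agonist exceeded DMSO, WMS-200 was the lowest agonist, and WMS-75 lay between it and the remaining 3. With all agonists over DMSO the log2 fold change was 2.75 ± 0.63, with WMS-200 1.48 ± 0.61 and with the other 4 2.95 ± 0.47, as a description. WMS-200 was lower than the other 4 by the test, at -1.47 ± 0.37 (adjusted p = 0.0137), and this call was lost with limma-voom (adjusted p = 0.105). In Th1 Spp1 had 26.4, 24.4, 26.0, 27.1 and 30.2 CPM in the agonist libraries, against 33.1 CPM with DMSO, and in CD8 it had 32.0, 39.4, 28.4, 23.4 and 27.6 CPM in the agonist libraries, against 49.9 CPM with DMSO. In Th17 it had 7.00, 7.60, 3.60, 6.27 and 5.88 CPM in the agonist libraries, against 10.3 CPM with DMSO. All 5 agonist libraries thus lay below DMSO in each of these 3 cell types, while in Treg all 5 lay above it. All 5 agonist libraries lay below DMSO in 17.9% of all genes tested in Th1, 14.9% in Th17 and 14.9% in CD8. The mean over Th1, Th17 and CD8 was -0.60 ± 0.20 on the log2 scale, which did not pass the test over all genes (adjusted p = 1.00). An exact permutation test that moved the DMSO label within each of the 3 cell types gave p = 0.00463, two-sided and unadjusted, the smallest value its 216 arrangements allow, with 10 genes tested in this way. The test takes the libraries of a cell type as interchangeable. In Th17 DMSO is alone in its WT number, so there the test cannot tell agonist from WT number. With the WT number as a replicate block the Spp1 difference in Th17 was 0.66.

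Cadm1 encodes an adhesion molecule of the immunoglobulin superfamily, a ligand of the lymphocyte receptor Crtam. Treg had 2.85 CPM with WMS-200, 3.36 with WMS-64, 2.13 with WMS-75, 2.19 with WMS-76 and 2.66 with WMS-83, against 0.529 CPM with DMSO. WMS-64 was highest, WMS-200 second and all agonists were well above DMSO. The log2 fold change over DMSO was 2.31 ± 0.66 with all agonists and 2.42 ± 0.75 with WMS-200 alone. WMS-200 against the other 4 gave 0.14 ± 0.49 with an interval of -0.87 to 1.15, so a difference of up to about that size in either direction remains possible. In Th1 the gene had 6.40, 5.94, 3.81, 5.12 and 7.38 CPM in the agonist libraries, against 7.82 CPM with DMSO, and in CD8 it had 0.852, 1.10, 0.834, 1.41 and 0.618 CPM in the agonist libraries, against 2.87 CPM with DMSO. In both cell types all 5 agonists lay below DMSO, the reverse of the order in Treg. Th17 libraries held 2 to 15 reads of Cadm1 and gave 0.0934 to 0.765 CPM in the Th17 agonist libraries, against 0.640 CPM with DMSO. CD8 had the largest difference of the gene outside Treg, -1.56 ± 0.49, and the mean over the 3 cell types was -1.02 ± 0.33 (adjusted p = 1.00 for both). The exact permutation test gave p = 0.0139, two-sided and unadjusted, with the same limit from the WT number in Th17 as for Spp1.

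**Figure D3:**
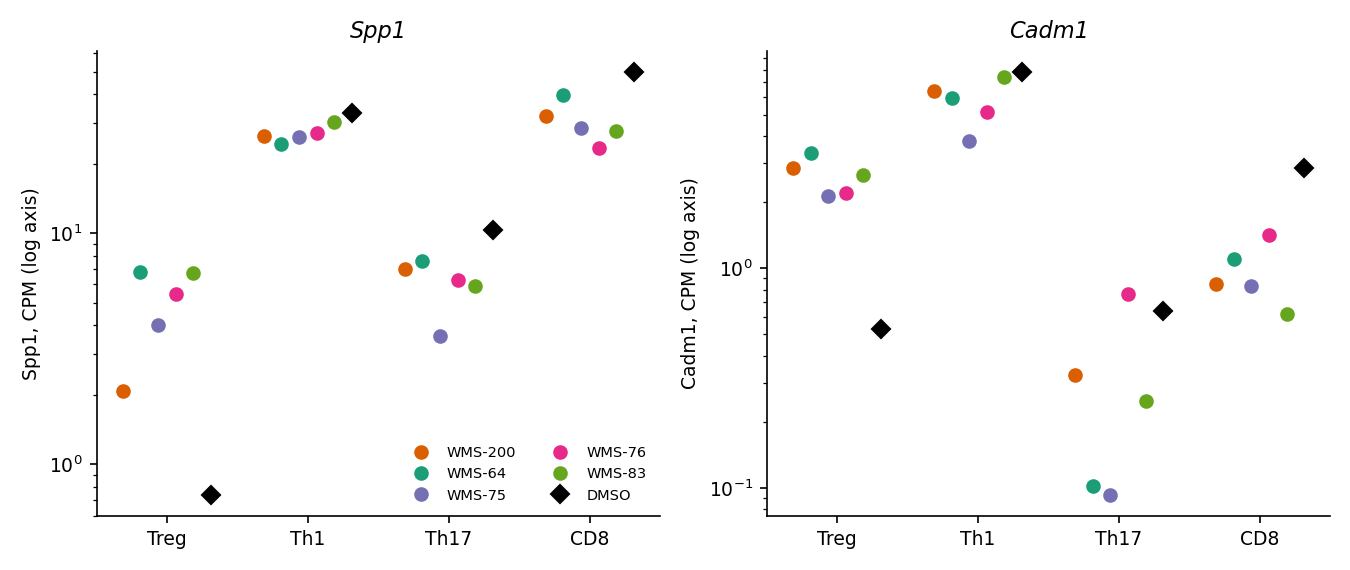
CPM (log axis) of Spp1 and Cadm1 in every library by cell type, with agonists as circles and DMSO as a diamond. In Treg DMSO is the lowest library for both genes, and for Spp1 it is the highest library in Th1, Th17 and CD8.

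Among the genes of the cytoskeleton, Mical2 encodes an enzyme that oxidises actin and is known to promote transcription by serum response factor. In Treg it had 4.35 CPM with WMS-200, 17.1 with WMS-64, 14.2 with WMS-75, 16.0 with WMS-76 and 14.8 with WMS-83, against 1.53 CPM with DMSO. The other 4 agonists lay close together, WMS-200 was well below them, and DMSO was lowest. Over DMSO its log2 fold change was 3.11 ± 0.58 with all agonists, 1.50 ± 0.42 with WMS-200 and 3.34 ± 0.37 with the other 4. WMS-200 was lower than the other 4 agonists at -1.84 ± 0.31 (adjusted p = 0.000214). Th17 cells had 17.5, 19.2, 18.9, 22.0 and 24.7 CPM in the agonist libraries, against 32.0 CPM with DMSO, so that DMSO was the highest Th17 library and the lowest Treg library. The Th17 difference of -0.64 ± 0.39 did not pass the test. Th1 libraries held 1 to 6 reads of Mical2 and CD8 libraries 3 to 15, too few to show a difference between treatments.

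Rai14 encodes an ankyrin repeat protein that binds actin. Its Treg levels were 1.45 CPM with WMS-200, 7.09 with WMS-64, 6.77 with WMS-75, 5.71 with WMS-76 and 6.27 with WMS-83, against 1.11 CPM with DMSO. WMS-200 and DMSO were nearly level, and the other 4 agonists formed a separate group above both. The log2 fold change was 2.29 ± 0.56 with all agonists over DMSO, 0.38 ± 0.45 with WMS-200 alone and 2.53 ± 0.35 with the other 4. WMS-200 was lower than the other 4 at -2.15 ± 0.33 (adjusted p = 7.69e-05). Elsewhere Rai14 had 11.5 to 15.6 CPM in the Th1 agonist libraries, against 15.3 CPM with DMSO, then 1.73 to 2.91 CPM in the Th17 agonist libraries, against 2.75 CPM with DMSO, and 6.51 to 9.38 CPM in the CD8 agonist libraries, against 7.15 CPM with DMSO. DMSO fell within the agonist range in Th17 and CD8 and, in Th1, below WMS-64 only.

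Dpysl2 encodes CRMP2, a tubulin-binding protein known from axon growth and T cell migration. It had 17.0 CPM with WMS-200, 26.2 with WMS-64, 24.2 with WMS-75, 25.6 with WMS-76 and 30.6 with WMS-83, against 10.4 CPM with DMSO in Treg. The agonists spread from WMS-200 at the bottom to WMS-83 at the top, all above DMSO. Relative to DMSO the log2 fold change was 1.25 ± 0.20 with all agonists, 0.72 ± 0.19 with WMS-200 and 1.36 ± 0.16 with the other 4. WMS-200 was lower than the other 4 at -0.65 ± 0.14 (adjusted p = 0.00428). In Th17 all 5 agonists also exceeded DMSO, at 25.5 to 29.5 CPM in the Th17 agonist libraries, against 25.4 CPM with DMSO, as in 14.1% of all genes tested there, and the difference of 0.09 ± 0.18 did not pass the test. Levels in the other cell types were 39.4 to 44.8 CPM in the Th1 agonist libraries, against 42.1 CPM with DMSO, and 40.1 to 46.9 CPM in the CD8 agonist libraries, against 46.9 CPM with DMSO, with differences of -0.05 ± 0.17 and -0.11 ± 0.17.

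Of the genes best known from synapses, Apba1 encodes an adaptor that binds the amyloid precursor protein. In Treg it had 1.22 CPM with WMS-200, 5.52 with WMS-64, 6.66 with WMS-75, 7.08 with WMS-76 and 5.62 with WMS-83, against 0.582 CPM with DMSO. WMS-200, at 27 reads, was nearer to DMSO, at 11 reads, than to the other 4 agonists at 114 to 155 reads. The log2 fold change over DMSO was 3.15 ± 0.89 with all agonists, 1.06 ± 0.84 with WMS-200 and 3.40 ± 0.76 with the other 4. WMS-200 was lower than the other 4 at -2.34 ± 0.68 (adjusted p = 0.0298). This call was lost without WMS-75 (adjusted p = 0.0552), without WMS-76 (0.0658) and without WMS-83 (0.0540) in Treg, with values between -2.39 and -2.27. Outside Treg no library held more than 6 reads of Apba1. Th17 DMSO held 6 reads and the Th17 agonist libraries 0 to 2, and the CD8 libraries held 1 read in all, from WMS-200.

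Nrgn encodes neurogranin, a protein that binds calmodulin. Its Treg levels were 2.13 CPM with WMS-200, 3.22 with WMS-64, 3.15 with WMS-75, 2.60 with WMS-76 and 2.81 with WMS-83, against 0.370 CPM with DMSO. The 5 agonists lay close together with WMS-200 lowest, and DMSO, at 7 reads, was far below. Its log2 fold change over DMSO was 2.89 ± 0.66 with all agonists and 2.50 ± 0.74 with WMS-200. WMS-200 against the other 4 gave -0.47 ± 0.50 with an interval of -1.49 to 0.56, which did not pass the test. In Th17 Nrgn had 0.543, 0.510, 0.607, 1.22 and 0.743 CPM in the agonist libraries, against 1.66 CPM with DMSO, from 10 to 26 reads a library. All 5 Th17 agonists were below DMSO, and the difference of -1.19 ± 0.51 did not pass the test over all genes (adjusted p = 1.00). Nrgn had 0.738 to 1.25 CPM in the Th1 agonist libraries, against 1.24 CPM with DMSO, and 0.890 to 1.90 CPM in the CD8 agonist libraries, against 1.41 CPM with DMSO, with DMSO inside the agonist range in both.

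Siah1b encodes a ubiquitin ligase of the Siah family. Its reads may be shared with the near-identical paralog Siah1a, so its level is uncertain. In Treg it had 3.85 CPM with WMS-200, 4.92 with WMS-64, 3.95 with WMS-75, 3.97 with WMS-76 and 5.97 with WMS-83, against 1.00 CPM with DMSO. All agonists were several times above DMSO, and WMS-200 was level with WMS-75 and WMS-76. Its log2 fold change over DMSO was 2.17 ± 0.34 with all agonists and 1.93 ± 0.39 with WMS-200. WMS-200 against the other 4 gave -0.29 ± 0.26 with an interval of -0.83 to 0.25. In Th1 Siah1b had 5.77, 5.83, 6.42, 5.27 and 4.59 CPM in the agonist libraries, against 8.81 CPM with DMSO. All 5 Th1 agonists lay below DMSO, and the difference of -0.66 ± 0.24 did not pass the test over all genes (adjusted p = 1.00). Levels were 6.77 to 8.96 CPM in the Th17 agonist libraries, against 8.07 CPM with DMSO, and 7.23 to 8.14 CPM in the CD8 agonist libraries, against 7.94 CPM with DMSO, with differences of -0.06 ± 0.25 and -0.02 ± 0.25. Siah1a itself had 24.9 ± 2.09 CPM in the Treg agonist libraries (SD, n = 5), against 21.7 CPM with DMSO, a log2 fold change of 0.19 ± 0.16 that did not pass the test.

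C1qbp encodes a protein of the mitochondrial matrix that also binds the globular heads of complement C1q. The Treg libraries gave 30.5 CPM with WMS-200, 40.5 with WMS-64, 35.6 with WMS-75, 36.3 with WMS-76 and 42.2 with WMS-83, against 18.5 CPM with DMSO. WMS-200 was the lowest agonist, at 1.65 times DMSO, and every agonist was above DMSO. The log2 fold change over DMSO was 1.00 ± 0.15 with all agonists, 0.72 ± 0.16 with WMS-200 and 1.07 ± 0.13 with the other 4. WMS-200 against the other 4 gave -0.34 ± 0.12 with an interval of -0.59 to -0.10 (adjusted p = 0.0727), which passed the threshold without Treg WMS-75 (adjusted p = 0.0488) and without Th17 WMS-75 (0.0442). The other cell types had several times more, 186 to 210 CPM in the Th1 agonist libraries, against 210 CPM with DMSO, 137 to 166 CPM in the Th17 agonist libraries, against 145 CPM with DMSO, and 196 to 216 CPM in the CD8 agonist libraries, against 208 CPM with DMSO. Differences there were -0.06 ± 0.12, 0.10 ± 0.12 and -0.04 ± 0.12 in Th1, Th17 and CD8.

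Across Th1, Th17 and CD8, 0 of the 10 genes were called for agonists against DMSO, and 0% of all genes tested were called in Th1, 0.0378% in Th17 and 0.0063% in CD8. At an unadjusted p below 0.05 the count was 1 gene in Th1 (Siah1b), 2 in Th17 (Apba1 and Nrgn) and 2 in CD8 (Spp1 and Cadm1), each of them lower with agonists, where 3.25% of all genes tested were under that value in Th1, 3.34% in Th17 and 2.01% in CD8. Values below 0 were seen in 8 genes in Th1, 8 in Th17, 6 in CD8 and 9 for the mean over the 3 cell types, with medians of -0.18, -0.66, -0.03 and -0.25. Medians over all genes tested were -0.0017, 0.005, 0.0007 and 0.0096. The share of all genes below 0 was not counted, and Apba1, and Mical2 in Th1 and CD8, rest on few reads. Nothing is therefore read from these directions. For the mean over the 3 cell types 0 genes were called, with 0% over all genes, and Spp1 and Cadm1 were under an unadjusted p of 0.05, as were 2.66% of all genes. In the exact permutation test Siah1b had p = 0.0509 and C3 p = 0.0787, and the other 6 genes had p of at least 0.12. DMSO is alone in its WT number in Th17, so agonist and WT number cannot be told apart there. With the WT number as a replicate block, estimated through the other cell types, C3 in Th17 was 2.14 in place of -0.68 and was called (adjusted p = 0.0133), and Mical2, Spp1, Rai14 and Siah1b also changed sign without a call.

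**Figure D4:**
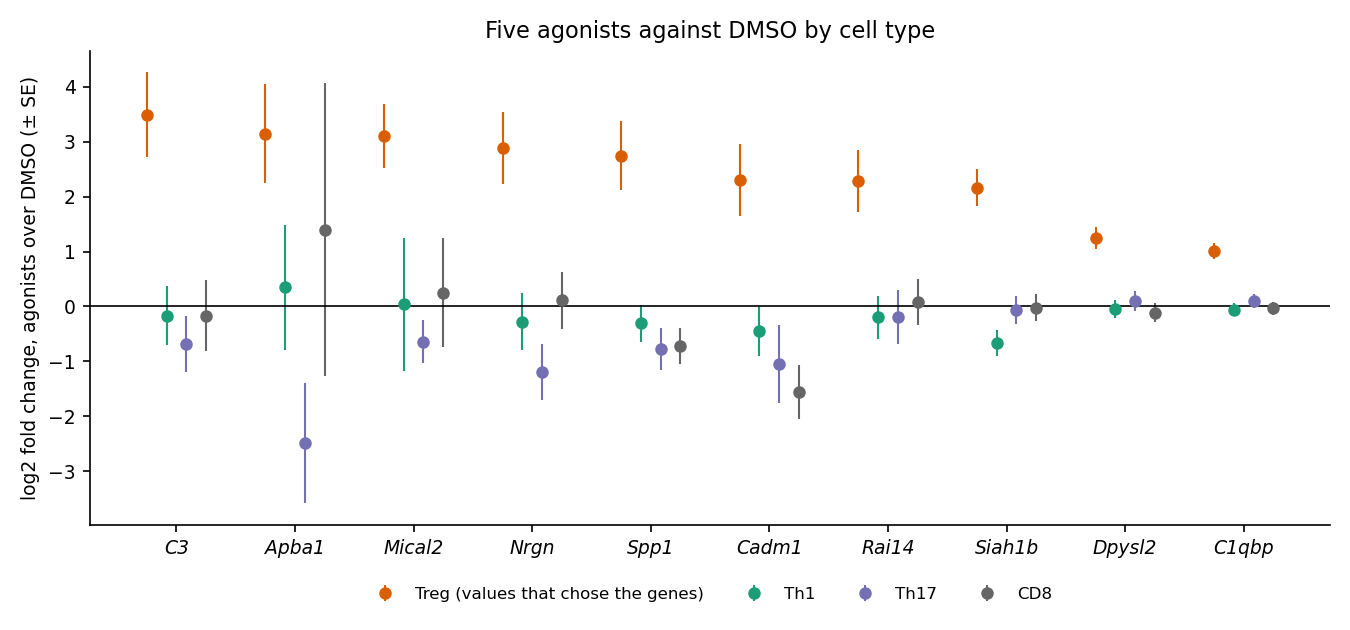
Log2 fold change (± SE) of the 5 agonists over DMSO for each gene in Treg, Th1, Th17 and CD8. The Treg values, which chose the genes, run from 1.00 to 3.50, and none of the values in the other cell types passed the test.

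The 5 agonists did not differ detectably from one another in Th1, Th17 and CD8 fitted as one set. Of the 10 genes 0 were called in an F-test among the agonists, with 0% of all genes tested called, and the lowest adjusted p was 0.769 for C3, whose unadjusted p was 0.048. By DESeq2, with a likelihood ratio test in place of the F-test, 59 genes were called in all, and 0 of these 10. Whether the step between WMS-200 and the other 4 agonists differs between Treg and the other cell types was not tested.

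The 10 genes do not share a level pattern across cell types. Apba1 passed the filter on low counts through its Treg libraries alone, at 11 to 155 reads in Treg against 0 to 6 reads a library elsewhere, and is left out of the counts of this comparison. Of the other 9 genes, Treg against the mean of the other 3 cell types called 3 higher and 5 lower, where 80.9% of all genes tested were called, 43.1% higher and 37.8% lower. Mical2, Nrgn and Cadm1 were higher in Treg, at 2.92 ± 0.24, 0.86 ± 0.22 and 0.58 ± 0.24 on the log2 scale. These levels include the Treg agonist libraries that chose the genes. With DMSO alone Nrgn had 0.370 CPM in Treg, 1.24 in Th1, 1.66 in Th17 and 1.41 in CD8. Treg was thus lowest for Nrgn, at 7 reads. Cadm1 had 0.529, 7.82, 0.640 and 2.87 CPM in the same order. With DMSO both Treg and Th17 held 10 reads of Cadm1, too few to rank one below the other. Mical2 had 1.53, 0.198, 32.0 and 0.338 CPM in that order. C1qbp, Spp1, Siah1b, Dpysl2 and Rai14 were lower in Treg, at -2.49 ± 0.06, -2.32 ± 0.20, -1.02 ± 0.12, -0.77 ± 0.08 and -0.60 ± 0.20. The median of all genes tested was 0.10. C3 was not called (0.48 ± 0.25, adjusted p = 0.0877) and became so without Treg WMS-200 (0.69, adjusted p = 1.4e-05) or without Th1 WMS-83 (0.53, adjusted p = 0.0496). The Cadm1 call was lost without Treg WMS-64 (0.50, adjusted p = 0.0722) and when a gene-length trend was removed from each library (0.23, adjusted p = 0.377).

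**Figure D5:**
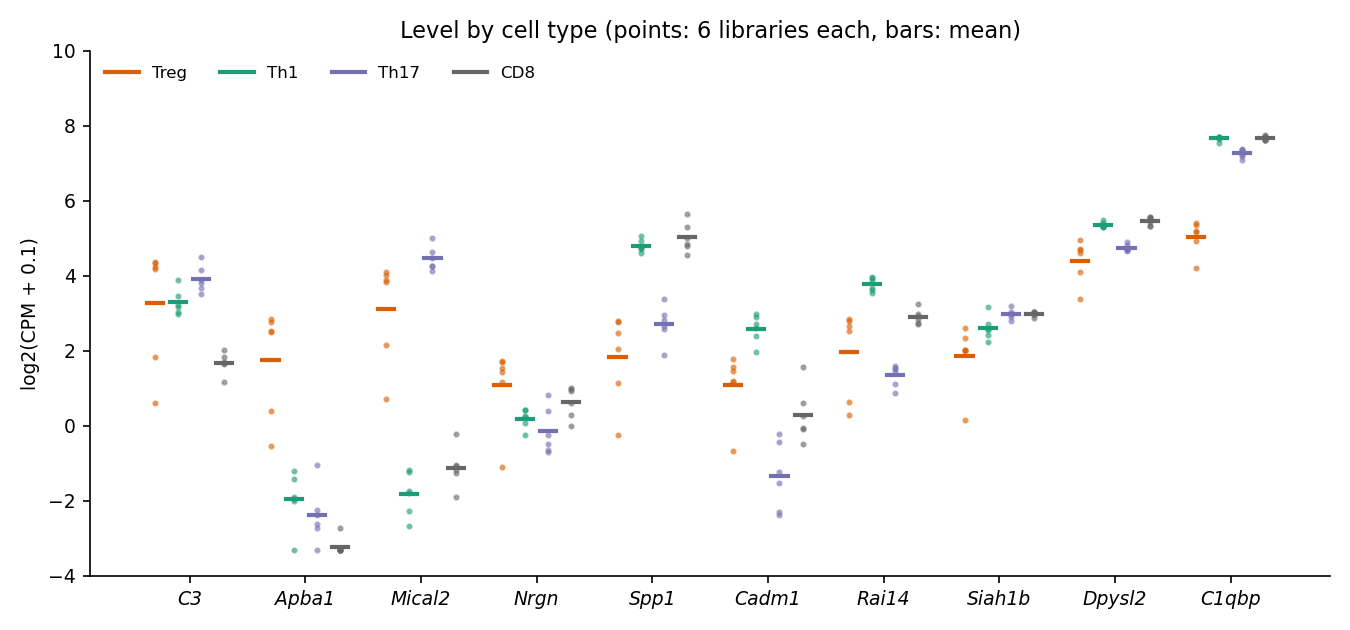
Level of each gene as log2(CPM + 0.1), with 6 libraries per cell type as points and their mean as a bar, in the order Treg, Th1, Th17 and CD8. Mical2 averages 22.4 CPM in Th17 and 11.3 CPM in Treg and under 0.4 CPM in Th1 and CD8, and C1qbp has its lowest libraries in Treg.

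By gene the order of levels ran as follows, as means of 6 libraries with SD. Mical2 averaged 22.4 ± 5.36 CPM in Th17 and 11.3 ± 6.64 CPM in Treg, and 0.387 ± 0.195 in CD8 and 0.203 ± 0.115 in Th1. The Treg libraries all lay below the Th17 libraries, although the SDs overlap, and Th1 and CD8 differed by less than the test could detect. Rai14 averaged 13.6 ± 1.75 CPM in Th1 cells, 7.48 ± 1.04 in CD8 cells, 4.73 ± 2.72 in Treg and 2.48 ± 0.475 in Th17. Its Treg values overlap those of both neighbours in that order, whereas Th1 was above CD8 by 0.87 ± 0.22 on the log2 scale (adjusted p = 0.0048). Cadm1 averaged 6.08 ± 1.48 CPM in Th1, 2.29 ± 0.973 in Treg, 1.28 ± 0.825 in CD8 and 0.362 ± 0.281 in Th17. Th1 exceeded CD8 by 2.37 ± 0.28, and CD8 exceeded Th17 by 1.73 ± 0.35 on the log2 scale. Spp1 averaged 33.5 ± 9.66 CPM in CD8, 27.9 ± 3.17 in Th1, 6.78 ± 2.21 in Th17 and 4.30 ± 2.50 in Treg. CD8 and Th1 did not differ by the test (Th1 over CD8 -0.24 ± 0.18, adjusted p = 0.438), and both were above Th17, at 2.31 ± 0.20 and 2.07 ± 0.20.

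C3 averaged 15.4 ± 4.07 CPM in Th17, 13.7 ± 8.80 in Treg, 9.91 ± 2.60 in Th1 and 3.12 ± 0.580 in CD8. Treg spanned the levels of both Th17 and Th1, and CD8 was below Th1, where Th1 over CD8 was 1.67 ± 0.32. Dpysl2 averaged 44.0 ± 3.24 CPM in CD8, 41.0 ± 2.10 in Th1, 26.8 ± 1.64 in Th17 and 22.3 ± 7.34 in Treg, with CD8 and Th1 not distinguished by the test and both above Th17. C1qbp averaged 203.9 ± 9.03 CPM in CD8, 203.0 ± 8.94 in Th1, 154 ± 11.9 in Th17 and 33.9 ± 8.62 in Treg, again with CD8 and Th1 not distinguished by the test. Siah1b had 7.83 ± 0.335 CPM in CD8, 7.78 ± 0.731 in Th17, 6.12 ± 1.46 in Th1 and 3.94 ± 1.66 in Treg. CD8 and Th17 did not differ by the test. Nrgn averaged 2.38 ± 1.06 CPM in Treg, 1.50 ± 0.432 in CD8, 1.06 ± 0.191 in Th1 and 0.882 ± 0.464 in Th17, and Apba1 averaged 4.45 ± 2.82 CPM in Treg and under 0.2 CPM in the others. Th1 against Th17 called 7 of the 10 genes, where 49% of all genes tested were called, Th1 against CD8 called 5, against 17.7%, and CD8 against Th17 called 8, against 49%. Apba1, left out of the Treg comparison, is counted here, with at most 6 reads in a Th1 library and 1 in a CD8 library. Its Th1 against CD8 call (3.67 ± 0.97, adjusted p = 0.0068) was lost with limma-voom (adjusted p = 0.253). With the WT number as a replicate block the count for CD8 against Th17 was 2, C3 and Mical2 staying called. The Th1 calls of Siah1b were near the threshold, with Th1 over Th17 at an adjusted p of 0.0218 and Th1 over CD8 at 0.0450. Siah1b against Th17 was lost without Th1 WMS-83 (0.0586) or Th17 WMS-200 (0.0607). Against CD8 it was lost without Th1 WMS-200, WMS-64, WMS-76 or WMS-83, Th17 WMS-64 or WMS-83, or any CD8 agonist library, at adjusted p of 0.0508 to 0.112.

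Per kilobase of the length in the table, which allows genes to be compared, C1qbp was the most abundant in every cell type, at 12.0 CPM per kilobase in Treg, 71.8 in Th1, 54.6 in Th17 and 72.1 in CD8. In Treg Dpysl2 followed at 4.94 CPM per kilobase, then C3 at 2.67, Spp1 at 2.61, Siah1b at 1.86 and Nrgn at 1.64. Mical2 at 0.744, Apba1 at 0.646, Rai14 at 0.559 and Cadm1 at 0.194 CPM per kilobase were the lowest in Treg. Thus C1qbp, with the smallest log2 fold change over DMSO of the 10, had the highest level.

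Genes around the members were counted from lists of their families and partners, with 7.64% of all genes tested called higher in Treg with agonists. Of 11 measured complement genes 0 were called in either direction, with a median of -0.08. Of 11 osteopontin receptor and processing genes 1 rose, the integrin subunit gene Itgb1 (0.67 ± 0.14), while Cd44 was at 0.09 ± 0.11 and Itgav at -0.09 ± 0.11 without a call. None of 10 genes around Cadm1 and none of 15 around Dpysl2 were called. Of 18 genes around Mical2, 5 rose. They are Actb (0.79 ± 0.16) and Actg1 (0.77 ± 0.14), which encode cytoplasmic actins, Flna (0.82 ± 0.19), which encodes filamin A, Tagln2 (0.72 ± 0.14) and Srf (0.39 ± 0.12), which encodes serum response factor, while Mical1 and Mical3 were not called. Of 9 Apba adaptors Apba3 fell (-0.60 ± 0.15) and 0 rose. Of 13 Siah genes and partners 2 rose, Cacybp (0.82 ± 0.20) and Ube2l3 (0.54 ± 0.15), and of 20 mitochondrial genes 4 rose, Mrpl12, Hspe1, Hspd1 and Mybbp1a (0.64 to 0.83). Adjusted p of these calls lay between 0.00253 and 0.0404. With the WT number as a replicate block, under which Treg WMS-200 alone is set against DMSO, 17 genes in all were called in Treg in place of 1401, and Flna, for one, had 307 CPM with WMS-200 and 519 ± 39.5 CPM with the other 4 (SD, n = 4), against 269 CPM with DMSO. None of these lists had a gene called in Th1, Th17 or CD8.

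Between WMS-200 and the other 4 Treg agonists the same lists gave calls in both directions, with 5.23% of all genes tested lower and 2.54% higher. Flna was lower with WMS-200 than with the other 4 (-0.76 ± 0.12), as was Tpm4 (-0.35 ± 0.10), both among the 18 genes around Mical2. Flna had 307 CPM with WMS-200 and 269 CPM with DMSO, and Tpm4 245.8 and 238.5 CPM, so neither was below DMSO. The CRMP family gene Crmp1 (-0.67 ± 0.16) and the kinase gene Cdk5 (-0.55 ± 0.15) were also lower than with the other 4, as Dpysl2 was. Crmp1 had 22.9 CPM with WMS-200 and 22.5 CPM with DMSO, and Cdk5 30.0 and 31.7 CPM. Crtam, the receptor of Cadm1, was higher with WMS-200 than with the other 4 (1.06 ± 0.18). It had 13.7 CPM with WMS-200, 6.60 ± 1.58 CPM with the other 4 (SD, n = 4) and 6.71 CPM with DMSO. Itga4 (0.53 ± 0.12) and Cd96 (0.34 ± 0.11) were higher in the same comparison. Itga4 had 176 CPM with WMS-200 and 181 CPM with DMSO, and Cd96 198 and 167 CPM. Slirp was lower with WMS-200, at 0.136 CPM against 1.09 ± 0.197 CPM with the other 4, and had 1.22 CPM with DMSO. In the WMS-200 library 0.136 CPM is the level of 3 reads, so this call rests on few reads. No complement, Apba adaptor or Siah gene was called.

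Outside the list, 6 genes followed the 10 most closely over the 24 libraries, by Pearson's correlation of log2 CPM centred in each cell type with the mean of the 10. They were Txnrd1 (0.97), Ahcy (0.95), Prpf31 (0.95), Impdh2-ps (0.95), Rrm2 (0.94) and Il2ra (0.94), of 11417 genes considered, 56 of which exceeded 0.9. The points share libraries and depth, and most of the spread comes from Treg: over the 18 libraries of the other cell types the values were 0.65, 0.76, 0.69, 0.84, 0.69 and 0.33. Il2ra, the interleukin 2 receptor alpha chain of activated T cells and Treg, had 879 CPM with WMS-200, 1376 with WMS-64, 1210.3 with WMS-75, 1111 with WMS-76 and 1279 with WMS-83 in Treg, against 564 CPM with DMSO. Txnrd1, which encodes thioredoxin reductase, had 119 CPM with WMS-200 and 158 to 170 CPM with the other 4, against 91.2 CPM with DMSO. In both WMS-200 lay between DMSO and the remaining agonists, as in 9 of the 10 genes. Both were picked for their likeness to the 10, so this order is no separate observation.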

How the data were processed

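Messenger RNA was sequenced from poly(A)-enriched total RNA of 24 libraries of cultured mouse T cells, per the labels' protocols. The authors deposited raw read counts per gene, and the submitters' processing notes name featureCounts, HISAT2 and fastp as the tools used. No source used here gives their versions, the genome build, the annotation release or the strand setting. All 24 columns were matched to labelled samples, with 0 left over. One Th1 library has a title that reads Th17, and it was placed by its source name, characteristics and column.

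The 10 genes, the gene lists and the tests were chosen with earlier results of these data known, so no pattern here is independent of them. Named beyond the 10 are list genes that passed the test or are direct partners, and the 6 genes most like the 10. The list around Nrgn is not reported here.

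Low genes were removed by filterByExpr (grouped by cell type, minimum count 10), and 15885 of 56748 genes were tested. An edgeR 4.0.16 quasi-likelihood model with TMM scaling and robust dispersion, in R 4.3.3, was fitted to all libraries with a mean for agonist and for DMSO in each cell type (16 residual degrees of freedom), or with WMS-200 in Treg as a mean of its own (15). P-values were adjusted over all genes tested by Benjamini and Hochberg at 0.05, and no test was made of agonists against DMSO in Treg for the 10 genes. The F-test among agonists used the 15 agonist libraries of Th1, Th17 and CD8. The biological coefficient of variation was 0.127. Scripts were tested on simulated data. Alternatives were DESeq2 1.42.0, its size factors, limma-voom (limma 3.58.1), no filter, gene-length offsets, the WT number as a block and each library left out. With 1 DMSO library per cell type, counts below about 10 give little precision, and PCR duplicates are not known, so errors cover the spread between libraries only.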

Additional observations from a re-analysis of the deposited data

Results flagged for a closer look

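Of 40 groups of 5 agonist libraries, 1 for each gene and cell type, 7 had a library far from the other 4, where chance gives about 1 in 20. Of the 7, 4 are in the Treg libraries that chose the genes and 1 rests on 1 read, so nothing is read from their number. In Treg the low library was WMS-200 in 4 genes. It had 3.49 CPM of C3 (others 18.2 to 20.7), 1.22 CPM of Apba1 (others 5.52 to 7.08), 4.35 CPM of Mical2 (others 14.2 to 17.1) and 1.45 CPM of Rai14 (others 5.71 to 7.09). WMS-200 is also the agonist library that shares its WT number with DMSO in Treg, and compound and WT number cannot be told apart.

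In Th1 the WMS-83 library was high for C3, at 14.7 CPM with the others at 7.75 to 9.15 CPM, and the WMS-76 library was high for Dpysl2, at 44.8 CPM with the others at 39.4 to 40.2 CPM. In CD8 the WMS-200 library had 0.0501 CPM of Apba1, which is 1 read, with the other agonist libraries at 0.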

How the results depend on the processing

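WMS-200 against the other 4 Treg agonists kept its calls of C3, Mical2, Rai14 and Dpysl2 under all 28 alternatives that gave an estimate. When single libraries were left out, 5 to 7 genes were called. These alternatives refit the same libraries, which also chose the genes, and cannot tell the compound from the WT number. With the WT number as a replicate block this comparison has no estimate, and likewise Treg against the other cell types, Th1 against Th17 and Th1 against CD8.

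In Treg the replicate block moved the median log2 fold change over DMSO to 1.38 in place of 2.53 and left 17 genes called in place of 1401, since it sets WMS-200 alone against DMSO. In Th17 it gave 1 member called in place of 0 and 102 genes called in place of 6, and values of C3 2.14, Mical2 1.47, Spp1 0.66, Rai14 2.07 and Siah1b 0.23, all with changed sign. For the mean over Th1, Th17 and CD8 it gave 18 genes called in place of 0, and C3 0.60, Apba1 0.53, Mical2 0.58, Rai14 0.65 and Dpysl2 0.21, also with changed sign. For CD8 against Th17 it gave 2 members called in place of 8 and 4463 genes in place of 7789, with Rai14 at -0.29 and Siah1b at -0.23, and removing a gene-length trend put Siah1b at -0.032.

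Genes called in all for agonists against DMSO were 3 with DESeq2 and 5 without a filter in Th1 (0 otherwise), 11 and 12 in Th17, and 1 and 2 for the mean over 3 cell types. The comparison among agonists called 59 genes with DESeq2, by a likelihood ratio test, and 233 without a filter, by the F-test. With limma-voom in Th1, Apba1 was -0.019 and Mical2 -0.16.

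Leaving out single libraries gave 0 to 1 genes called in Th1 and 0 to 38 in the F-test. Values near 0 changed sign in this way: Mical2 in Th1 (-0.22 to 0.27), Mical2 (-0.13 to 0.44), Rai14 (-0.0135 to 0.125) and Siah1b (-0.038 to 0.004) in CD8, C1qbp for the mean over 3 cell types (-0.0051 to 0.0174) and for Th1 against CD8 (-0.0184 to 0.0164), and Siah1b for CD8 against Th17 (-0.026 to 0.0588). The cause of these changes was not tested. Apba1 outside Treg and Mical2 in Th1 and CD8 rest on few reads, which limits what can be seen there.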

Other observations

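Between cell types the lists around the 10 genes took different directions. With Treg set against the mean of Th1, Th17 and CD8, 17 of 20 mitochondrial genes around C1qbp were lower in Treg and 2 higher, with a median log2 fold change of -1.23. Of 13 Siah genes and partners 10 were lower and 1 higher, with a median of -0.76. Of 11 complement genes 8 were higher and 2 lower, with a median of 0.68. The other 5 lists reported were nearer to balance, with 6 higher and 5 lower around Spp1, 5 and 3 around Cadm1, 7 and 7 around Dpysl2, 8 and 8 around Mical2 and 5 and 4 around Apba1. Over all genes tested 43.1% were called higher and 37.8% lower, and the median was 0.10.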
